A study of Mus musculus with 12 samples.

Results

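Antisense exon-overlapping transcripts are assembled transcripts that lie on the strand opposite a gene and overlap one of its exons. They were chosen by the class code x that the transcript comparison gave in the deposited table and by a length over 200 nt. In all, 2133 of the 71967 assembled transcripts met both criteria, and 49 further transcripts of this class were shorter. Each was set beside the sense transcripts listed under the same gene symbol, which is the gene named on the opposite strand. A sense transcript was available for 2131 of them, and the remaining 2 were both listed under Gm13304. They fell under 1088 gene symbols, of which 663 had 1 antisense transcript and 73 had 5 or more.

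Testes were collected from wild-type (WT) C57BL/6 mice at 3, 6, 12 and 18 months after birth (3M, 6M, 12M and 18M), with 3 mice at each age and 1 library per mouse. Total RNA went into libraries after ribosomal depletion, and these libraries did not keep the strand. Each of the 12 libraries held 50924104 to 71803379 reads assigned to transcripts. The tests below measure the spread between mice of 1 strain, and in whole testis fewer cells of a type and less RNA per cell cannot be told apart.

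An antisense RNA is copied from the DNA strand opposite that of its neighbour gene. Some pairs share a divergent promoter, some meet at their 3′ ends, and some lie wholly inside the other gene. Antisense RNAs are known for effects on the transcription, splicing and stability of their partners, and the testis, with its open chromatin in meiotic and postmeiotic germ cells, transcribes many of them. Without strand in the library, the direction of an assembled transcript comes from the letters at its introns, and reads of exonic sequence that both partners share cannot be told apart.

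The spliced transcripts are shown first by the sequence at their intron ends. Each line holds 20 bases of mm10 read from GENCODE vM21 transcripts or RefSeq promoters, 5′ to 3′ on the strand of the antisense transcript. The donor window has 10 exonic bases followed by 10 intronic bases, and the acceptor window has 10 intronic bases followed by 10 exonic bases. Capitals mark the intron's outermost 2 bases. The first set comes from 3 introns whose ends differ, opposite Cdipt (phosphatidylinositol synthase), Atat1 (the alpha-tubulin acetyltransferase) and Rpsa (a ribosomal protein). They lie at chr7:126974713-126974939 (minus strand), chr17:35910094-35910202 (plus strand) and chr9:120128603-120133493 (minus strand).
Cdipt MSTRG.19018.1 donor: tctagacatgGTgaacgctc
Cdipt MSTRG.19018.1 acceptor: ctaattccAGtgttcttcac
Atat1 MSTRG.9017.1 donor: aagagggccgGTaagtcttt
Atat1 MSTRG.9017.1 acceptor: ccttttgtAGgtctgtgccc
Rpsa MSTRG.21589.1 donor: tccttaagctGTgagtccag
Rpsa MSTRG.21589.1 acceptor: ccttttgtAGatgtactgct

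The second set comes from introns whose 2 ends lie in the same sequence, so that the donor and acceptor windows are identical over all 20 bases. The intron of the antisense transcript listed under Trpv2 (a cation channel gene) lies at chr11:62552350-62552805, opposite Ubb, which encodes a chain of repeated ubiquitin units. The intron of the Gm1821 transcript lies at chr14:46084330-46084557, opposite a ubiquitin pseudogene. The intron of the Tssk1 transcript, at chr16:17894740-17899121, runs from opposite Tssk2 to opposite Tssk1, 2 neighbouring genes for kinases of the spermatid.
Trpv2 MSTRG.2966.4 donor: gaaggaccagGTgcagggtt
Trpv2 MSTRG.2966.4 acceptor: gaaggaccAGgtgcagggtt
Gm1821 MSTRG.6204.1 donor: ggaggaccagGTgcagggtt
Gm1821 MSTRG.6204.1 acceptor: ggaggaccAGgtgcagggtt
Tssk1 MSTRG.7883.1 donor: cgacatccagGTcgtggcag
Tssk1 MSTRG.7883.1 acceptor: cgacatccAGgtcgtggcag
The Trpv2 and Gm1821 introns were 456 and 228 bases long, and the Tssk1 intron was 4382 bases long. The other 2 antisense transcripts under Tssk1, MSTRG.7883.2 and MSTRG.7883.3, had introns of the same 4382 bases, placed some bases along, and their windows were identical at both ends as well.

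The shared ends were counted as the longest run of identical bases across an intron's 2 ends, out of 20. Both ends could be read for 680 of the 3869 distinct introns of antisense transcripts. A run of 10 or more bases was present in 151 of them (22.2%), and 78 (11.5%) were identical over the whole window. Among the 18812 readable introns of sense transcripts, 267 (1.42%) had such a run and 125 (0.664%) were identical over the window. The readable introns are those in reference exons or promoters on either strand, so they are not a random sample of either class. In all, 149 antisense transcripts of 46 symbols had such an intron, and among the 31 with a readable intron and a mean level of at least 10 FPKM (fragments scaled by transcript length and library size), 9 did.

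**Figure D1:**
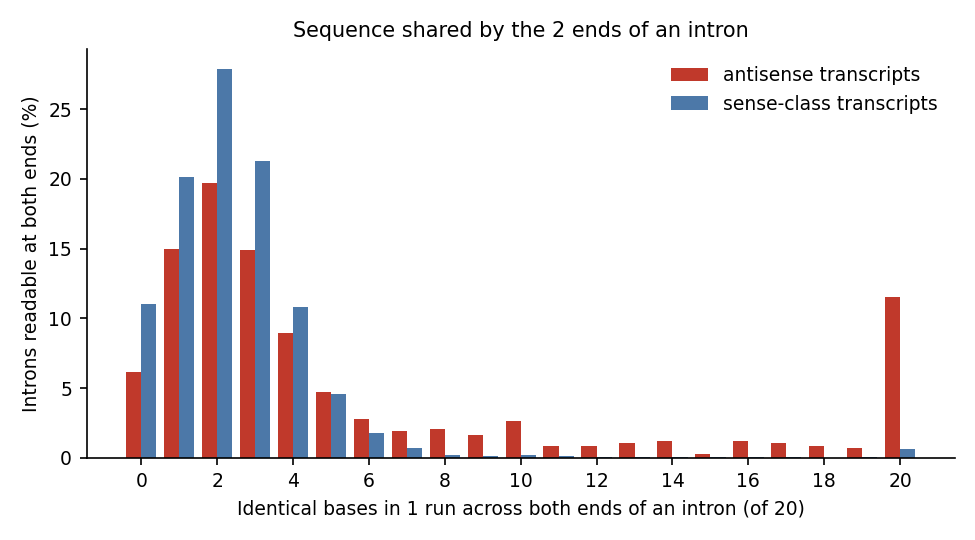
Bars give the percentage of introns readable at both ends (vertical axis) by the number of identical bases in 1 run across those ends (horizontal axis, of 20), for antisense and sense-class transcripts. The bar at 20 bases stands at 11.5% for antisense and 0.664% for sense-class introns.

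At the intron ends that could be read singly, 1271 of 1322 donors were GT and 42 were GC, and 1216 of 1223 acceptors were AG. With both ends read in 709 introns, 681 were GT-AG, 23 were GC-AG and 3 were AT-AC. The aligner takes the strand of a spliced read from these letters, so they are not an independent check of direction. Of the 6173 introns of the antisense transcripts, counted once per transcript, 0 were also introns of a sense transcript on the other strand.

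The name of the class was then checked against the exon coordinates. No exonic base lay opposite any sense-class exon for 425 antisense transcripts (19.9%), and none lay opposite a RefSeq exon for 571 (26.8%). For 1009 (47.3%) up to 50% of the length lay opposite sense exons, for 699 (32.8%) more than 50% did, and 287 lay wholly opposite. The median transcript had 20.1% of its length opposite sense exons and 3.54% opposite RefSeq exons. By the deposited coordinates, the class therefore held transcripts that face a gene's introns or flank, and the term antisense is used below for their strand. Whether the class code was set against another annotation or assembly was not tested. Of the 2133, 1030 (48.3%) lay inside the span of the sense gene, 544 (25.5%) were head to head with it, 417 (19.6%) were tail to tail and 140 (6.56%) spanned it.

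The structures were short and had few exons. The median length was 987 nt, with quartiles of 557 and 1854 nt. Of the transcripts, 27 had 1 exon, 612 had 2, 627 had 3 and 48 had 10 or more. GENCODE vM21 had an exon on the same strand for 991. It held the whole intron chain of 142, of which 86 were of its antisense type, 18 were lincRNAs and 13 were protein-coding, while 1142 (53.5%) overlapped no exon of it. Protein-coding matches included Cdipt antisense transcripts, which match Cdiptos, and the transcript listed under D330050I16Rik, which is the neighbouring gene Tsga10ip.

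Part of the head-to-head transcripts began near the promoter of their partner. A start within 500 nt of the start of the sense gene was seen for 195 of 544 head-to-head transcripts. In all, 332 antisense transcripts started inside an opposite-strand RefSeq promoter, taken as 250 bases before to 50 after a gene's start, and they occupied 214 of 32851 such windows. The Sp1-type box GGGCGG, searched on both strands, was present in 59.3% of these 214 windows and 35.7% of all. CCAAT was present in 47.2% against 37.4%, the CRE palindrome TGACGTCA in 4.67% against 1.79%, and TATAAA in 8.41% against 13.6%. The median window had 24 CpG dinucleotides against 7, and 61.7% G and C against 52.7%. These letters are matches in a window and say nothing of binding.

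Promoters that face each other are shown by 1 window near the median number of CpG and 1 with few. Cpsf2 encodes a subunit of the cleavage and polyadenylation complex, and its RefSeq promoter at chr12:101975724-101976023 (GRCm38, plus strand) held 26 CpG. The antisense transcript MSTRG.4686.1, which has the intron chain of Ndufb1-ps, started 3 bases past the start of Cpsf2 and had a mean of 50.4 FPKM. Prm3, a protamine-cluster gene expressed in spermatids, has its promoter at chr16:10790865-10791164 (minus strand) with 4 CpG, and MSTRG.7776.16, listed under Prm2, started 21 bases before the start of Prm3. The sequences are RefSeq's, on the strand of the promoter's gene.
Cpsf2 promoter: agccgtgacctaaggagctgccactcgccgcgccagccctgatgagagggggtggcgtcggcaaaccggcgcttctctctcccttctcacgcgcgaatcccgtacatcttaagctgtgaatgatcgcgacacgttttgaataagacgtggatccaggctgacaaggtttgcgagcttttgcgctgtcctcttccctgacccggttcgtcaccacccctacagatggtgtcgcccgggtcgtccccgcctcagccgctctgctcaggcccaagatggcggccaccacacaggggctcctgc
Prm3 promoter: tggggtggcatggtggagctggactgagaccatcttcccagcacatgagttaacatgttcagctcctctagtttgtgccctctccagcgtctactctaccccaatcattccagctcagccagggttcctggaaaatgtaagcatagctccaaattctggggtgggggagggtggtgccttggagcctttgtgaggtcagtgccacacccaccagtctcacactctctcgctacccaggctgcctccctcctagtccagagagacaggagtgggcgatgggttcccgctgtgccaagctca

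The median level of the antisense transcripts was near that of other unannotated classes. The median of their mean FPKM over the 12 libraries was 1.33, with quartiles of 0.686 and 2.23. A mean of at least 1 FPKM was reached by 1360, at least 10 by 67 and at least 50 by 12. For comparison, the median was 0.465 FPKM for the 35040 transcripts that match a reference transcript (class =), 1.39 FPKM for new isoforms of known genes (class j), 1.14 FPKM for intergenic (class u) and 1.18 FPKM for intronic (class i) transcripts, the latter 2 classes over 200 nt. Reference transcripts of class = can be listed without reads, whereas the other classes were assembled from reads. The lower median of class = therefore does not rank it below the antisense transcripts. Reads were assigned in all 12 libraries to 1578 of the 2133, and 1 had no read in any. Transcripts whose whole intron chain is in GENCODE had a median of 2.25 FPKM, against 1.25 FPKM for those with no GENCODE exon. Those lying mostly opposite sense exons had the lowest median of the 3 overlap classes (1.07 FPKM, against 1.5 with up to 50% and 1.3 with no overlap).

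The share of assigned reads that went to antisense transcripts was 0.813%, 0.782% and 0.791% in the 3M mice. It was 0.824%, 0.791% and 0.776% at 6M, 0.796%, 0.795% and 0.909% at 12M, and 0.838%, 0.869% and 0.846% at 18M. All 18M libraries were above all 3M libraries, while 1 library at 12M was the highest of all and the other two at that age lay within the range of 3M. Intronic transcripts shared this order, with 0.555% to 0.581% of reads at 3M and 0.599% to 0.615% at 18M. The same 12M library was their highest, at 0.647%. For intergenic transcripts the ages overlapped, at 3.43% to 3.64% at 3M and 3.59% to 3.70% at 18M. In the 12M library with the highest antisense share and at 18M, the antisense level against the sense level was also higher. The ratio was taken over the 978 symbols with an antisense sum of at least 1 FPKM in an age. Its median was -1.05 in that 12M library and -1.17 to -1.08 at 18M, against -1.25 to -1.22 in the 3M libraries.

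**Figure D2:**
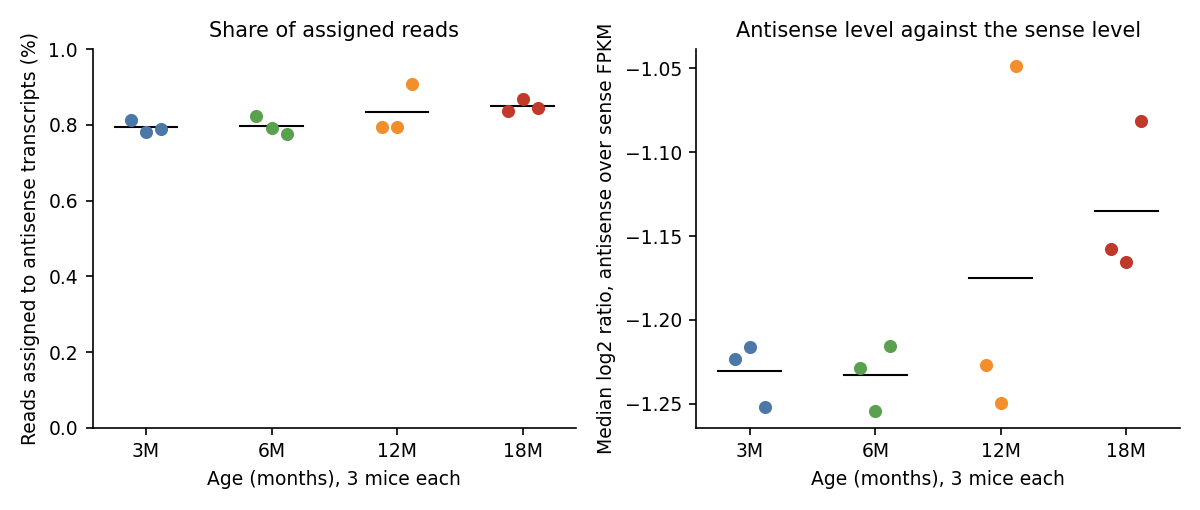
Left, the percentage of assigned reads that went to antisense transcripts, per library (points) and mean per age (lines); right, the median over 978 symbols of the log2 ratio of antisense to sense FPKM. The 18M libraries lie at 0.838% to 0.869% and the 3M libraries at 0.782% to 0.813%, and 1 library at 12M lies above all others in both panels.

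Against the gene of the same symbol, antisense transcripts were usually the lower partner. The covered exons can lie opposite another gene. Those listed under Trpv2 lie opposite Ubb, with a sense mean of 35.5 FPKM against 0.161 FPKM for Trpv2. Summed per symbol, the median log2 ratio of antisense to sense FPKM was -1.25, with a 10th to 90th percentile range of -5.30 to 2.47. In all 12 libraries the sense sum was higher for 572 symbols, and the antisense sum was higher for 256. These 978 symbols were kept for an antisense sum of at least 1 FPKM in an age, with no minimum on the sense side. The values therefore do not extend to symbols with a lower antisense level. The level of an antisense sum was nearly unrelated to that of its partner across symbols (Spearman's rank correlation 0.12 over 978 symbols, which are not independent replicates and share the same libraries).

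**Figure D3:**
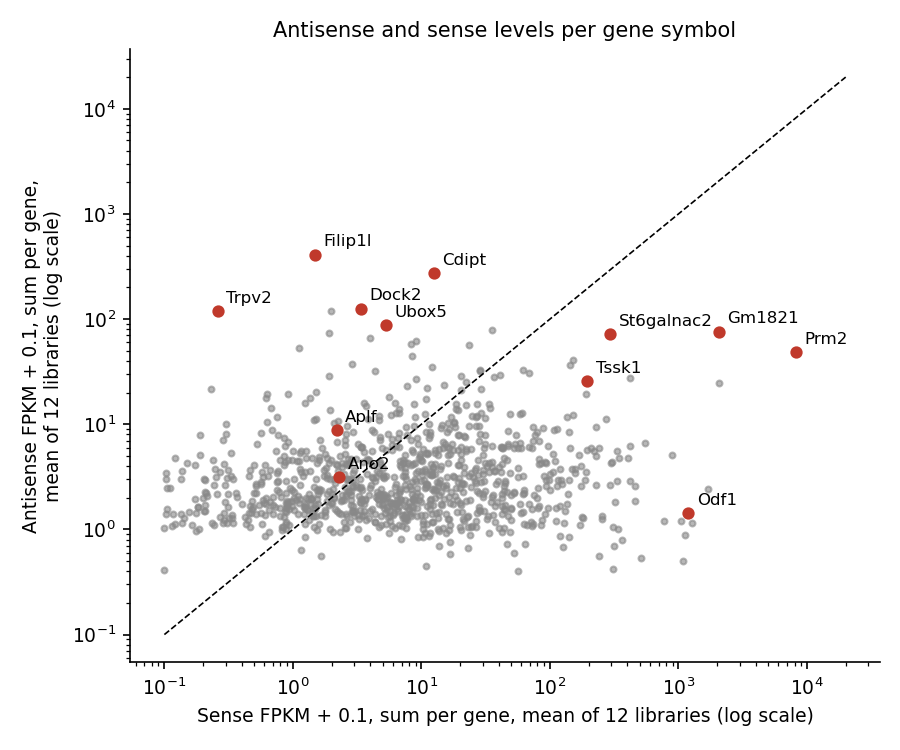
Each point is 1 gene symbol, with its sense FPKM (horizontal) and antisense FPKM (vertical) summed over transcripts and averaged over 12 libraries, with 0.1 added, on log axes; red points carry names and the dashed line marks equal levels. Filip1l, Cdipt, Trpv2, Dock2 and Ubox5 lie above the line, and Prm2 and Odf1 lie far to the right of it. Pairs follow the listed symbol, and the Trpv2 point does not show Ubb, which lies opposite its covered exons.

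The most abundant antisense transcript was MSTRG.8187.1, inside Filip1l, a gene for a filamin-interacting protein, and assembled on the strand of Cmss1. Its level was 362, 314 and 348 FPKM at 3M, 394, 339 and 348 FPKM at 6M, 430, 433 and 497 FPKM at 12M, and 689, 348 and 407 FPKM at 18M. The highest value was from 1 of the 18M mice, and the other two overlapped the younger ages. Nearly all of it came from 1 exon of 611 bases at chr16:57391066-57391676, with a mean coverage of 3130 ± 894 reads per base (SD, n = 12), whereas the other exon of 148 bases had 0.474 ± 0.273. The assembled strand rests on the intron between these exons, so the strand of the covered exon is uncertain. Sense Filip1l had a mean of 1.38 FPKM, and neither exon lay opposite a sense exon. The slope on age was 0.0357 ± 0.0122 log2 units per month (SE), with an adjusted p of 0.596 (edgeR quasi-likelihood test, Benjamini-Hochberg adjustment over all transcripts).

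Dock2, which encodes an activator of Rac in lymphocytes, had an antisense transcript with 2 exons covered alike. MSTRG.2662.1, with the intron chain of 4930403D09Rik, was at 120, 116 and 119 FPKM at 3M and 118, 130 and 128 FPKM at 18M, and all 12 libraries lay between 111 and 144 FPKM. Sense Dock2 had a mean of 3.29 FPKM. The exon opposite a sense exon had a coverage of 795 ± 127 reads per base (SD, n = 12) and the exon outside had 725 ± 116.

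Cdipt had 6 antisense transcripts, which share introns with Cdiptos. The longest, MSTRG.19018.1, was at 86.9, 120 and 91.2 FPKM at 3M, 96.2, 90.4 and 103 FPKM at 6M, 106, 95.8 and 122 FPKM at 12M, and 130, 106 and 135 FPKM at 18M. The ages overlapped. The shorter MSTRG.19018.3 was at 36.0, 46.3 and 36.7 FPKM at 3M and 54.3, 54.8 and 57.0 FPKM at 18M, with no overlap between those ages. This transcript was named for a small p between 18M and 3M, so that separation follows from the choice. The log2 difference of 18M over 3M was 0.48 ± 0.12 (SE), which did not pass the edgeR test (adjusted p = 0.813), while DESeq2 called the slope of this transcript on age (adjusted p = 0.0154). Sense Cdipt stood at a mean of 12.4 FPKM.

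Other transcripts of the 10 highest were listed under Trpv2 (with its covered exons opposite Ubb), Ubox5 (a U-box ubiquitin ligase), St6galnac2 (a sialyltransferase), D330050I16Rik, Arhgap21 (a GTPase-activating protein), Zfp780b (a zinc-finger protein) and Cpsf2. Their mean levels lay between 50.4 and 82.5 FPKM. The Trpv2 transcript was steady, at 74.1 to 102 FPKM in the 12 libraries. The Ubox5 transcript, at 57.4 to 100 FPKM, has 1 exon that lies wholly opposite a sense exon, so no intron gives its strand. The St6galnac2 transcript was at 52.4 to 103 FPKM in 11 libraries and at 0.0222 FPKM in 1 library at 6M. It is 1 of 2 antisense transcripts under St6galnac2, with a mean of 64.5 FPKM against 71.6 FPKM for their sum. The division of reads between such transcripts is an estimate, so the gap may not be one of the sum. The transcript that matches Tsga10ip had no such gap but varied from 35.9 to 98.2 FPKM, with high and low libraries at 3M, 6M, 12M and 18M alike. It too is 1 of 2 under its symbol, with a mean of 60.0 FPKM against 119 FPKM for their sum.

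Among transcripts with 3 or more exons and at most 50% of their length opposite RefSeq exons, those of Atat1, Rpsa and Cpsf2 were steady as well. The Atat1 transcript, which starts 325 bases inside its gene and shares an intron with Gm16279, was at 29 to 41.6 FPKM, beside 28.6 FPKM for sense Atat1, with 85% of its length opposite sense exons and 35.6% opposite RefSeq exons. The Rpsa transcript, tail to tail with its gene, was at 22.1 to 37.4 FPKM against 69.2 FPKM. The Cpsf2 transcript was at 42.1 to 55.8 FPKM against 8.92 FPKM. None of the 3 passed an edgeR test (adjusted p of the slope 0.889, 1 and 0.979).

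Coverage of single exons was compared by whether the exon lay opposite a sense exon. In 928 antisense transcripts with exons of both kinds, exons with at least 50% of their bases opposite a sense exon were set against exons of the same transcript with no base opposite. Exons with a smaller overlap were left out. Averaged over libraries, the log2 ratio of coverage had a median of -0.38 (quartiles -1.3 and 0.53). Taken within single libraries, the median was nearer to 0, at -0.23 to -0.09. The exons opposite a sense exon were over 2-fold more covered in 169 transcripts and over 2-fold less covered in 295. In all 12 libraries they were more covered in 139 and less covered in 246. The median ratio was -0.54 in the 309 transcripts with the lowest sense level, -0.44 in the 309 with intermediate and -0.11 in the 310 with the highest. Spearman's rank correlation of the ratio with the sense level was 0.089 over the 928 transcripts. The reason for differences in exon coverage was not tested.

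Several abundant transcripts had a large gap between exons. In the Trpv2 transcript, the exon of 155 bases opposite a sense exon, at chr11:62552806-62552960, had a coverage of 1145 ± 222 reads per base (SD, n = 12), and the outlying exon of 100 bases had 0.0446 ± 0.11. A partly overlapped exon of 501 bases beside it had 412 ± 85.8. In the Gm1821 transcript, the 2 exons opposite the pseudogene had means of 118 and 308 reads per base, and the 2 outlying exons of 10 bases had 0 and 0.0833. In the St6galnac2 transcript, the exon opposite had 520 ± 211 reads per base and the other had 0.159 ± 0.406. Its assembled strand rests on the intron between these exons, so the strand of the covered exon is uncertain. The exon ratio was near 0 not only for Dock2 but also for Zfp780b (316 against 266 reads per base) and Rpsa (177 against 199). The Rpsa value pools an exon of 670 bases with 201 ± 39.7 reads per base and an exon of 92 bases with 1.05 ± 0.983. The latter, at chr9:120128511-120128602, is at the acceptor end of the Rpsa intron shown above.

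**Figure D4:**
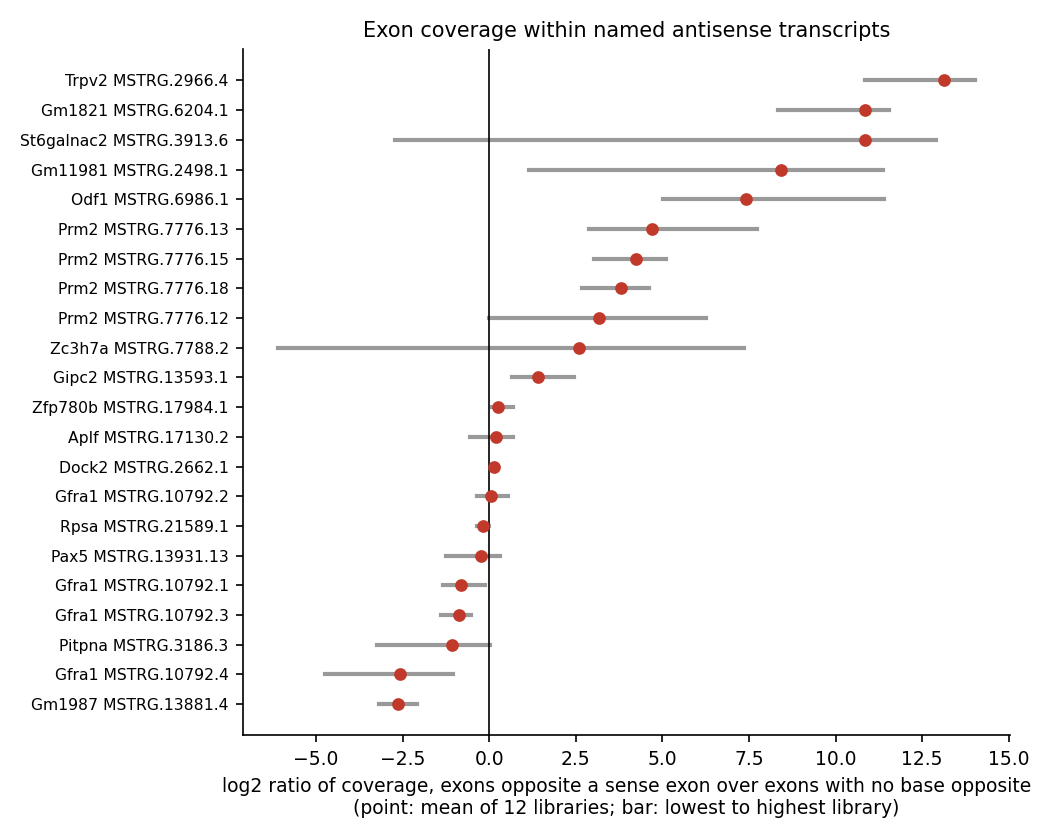
Log2 ratio of the mean coverage of exons opposite a sense exon over that of exons with no base opposite (horizontal axis, 0.1 added), for antisense transcripts named here (vertical axis); points are means of 12 libraries and bars run from the lowest to the highest library. Trpv2, Gm1821 and St6galnac2 lie far to the right, Odf1 lies there against an exon of only 10 bases, and Dock2, Zfp780b and Rpsa lie near 0.

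Germ cell genes were next. Of 24516 genes with a sense transcript, 1087 (4.43%) had an antisense transcript of this kind. Among the lists of cell type genes, these were 4 of 18 spermatid genes (22.2%: Tssk1, Prm2, Odf1 and Gapdhs), 1 of 15 spermatocyte genes (Sycp2, a part of the synaptonemal complex), 1 of 10 spermatogonial genes (Gfra1, the co-receptor for GDNF on stem cells) and 2 of 17 piRNA and germ granule genes (Piwil2 and Ddx4). Among genes of the somatic cells they were 1 of 13 Sertoli cell genes (Aard) and 0 of 10 Leydig cell, 0 of 8 peritubular myoid and endothelial and 0 of 8 macrophage and lymphocyte genes. The lists are short, and these counts are descriptions.

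Prm2, which packs sperm DNA, had 6 antisense transcripts on the plus strand of the protamine cluster, while sense Prm2 stood at 7235 to 10551 FPKM. The shortest, MSTRG.7776.16, was at 24.2, 26 and 4.3 FPKM at 3M, 3.97, 43.9 and 30.5 FPKM at 6M, 6.61, 5.27 and 6.38 FPKM at 12M, and 36.8, 7.10 and 5.86 FPKM at 18M. The values split into high and low libraries within 3M, 6M and 18M. The division of reads among the overlapping Prm2 antisense transcripts is an estimate, so this split may not hold for their sum. That sum had a mean of 48.5 FPKM over the 12 libraries. Its exon of 130 bases opposite Prm2 had a coverage of 402 ± 375 reads per base (SD, n = 12), and its other exon had 16.1 ± 10.9. MSTRG.7776.13 showed the same order, with 383 reads per base opposite sense exons against 18.5 elsewhere.

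The remaining spermatid genes were lower on the antisense side. The Tssk1 transcript MSTRG.7883.1, all of whose bases lay opposite Tssk1 and Tssk2, was at 15.2 to 22 FPKM against 147 to 236 FPKM for sense Tssk1. The Odf1 transcript, opposite a gene for a protein of the sperm tail's outer dense fibres, was at 0.812 to 2.36 FPKM against 1056 to 1422 FPKM. Its exon of 191 bases opposite Odf1 had 73.1 ± 101 reads per base (SD, n = 12), and its exon of 6413 bases had 6.10 ± 0.945. The Aard transcript, which has no exonic overlap, was at 1.07 to 2.37 FPKM. The 4 Gfra1 transcripts, tail to tail with their gene and with an exon on Gm16277, had means of 1.31 to 3.04 FPKM each. For Gfra1 the antisense sum, 9.6 FPKM, was above the sense sum of 2.52 FPKM.

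The question of the study was how testis transcripts change with age. By transcript, 0 of 1916 antisense transcripts tested passed the edgeR test of the slope on age, where 0.0103% of all 58289 transcripts did. None of 1803 passed between 18M and 3M, with a log2 fold change of at least 1 (0.108% of all), and none of 1916 passed the test of any difference among ages (0.048% of all). At an unadjusted p of 0.05 or less, edgeR gave 112 antisense transcripts on the slope (5.85%, against 7.15% of all), 36 between 18M and 3M (against 2.57% of all) and 87 in the test of any difference (against 5.49% of all). With DESeq2, the calls were 32 of 1933 on the slope (1.72% of all transcripts), 29 of 1978 between 18M and 3M (2.03% of all) and 39 of 1980 for any difference (2.83% of all).

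The direction of the small differences was mostly upward. A positive slope was found for 61.6% of antisense transcripts tested, against 50.8% of all transcripts, and the median slope was 0.00587 log2 units per month. The share was of like size for intergenic (61.8%) and intronic (63.4%) transcripts. It was 62.7% for antisense transcripts with no exonic overlap, 62.7% with up to 50% and 58.9% with over 50%. At an unadjusted p of 0.05 or less, 84 had higher levels with age (4.38%, against 3.5% of all) and 28 had lower levels (1.46%, against 3.65%). In CPM (counts scaled by library size), all 18M libraries were above all 3M libraries for 155 of 1803 (background 6.82% of all transcripts) and below them for 67 (background 6.72%).

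The mean FPKM was higher at every step from 3M to 18M for 103 of the 1623 antisense transcripts with at least 1 FPKM in an age, or 6.35%, beside 5.63% of all transcripts. It was lower at every step for 48, or 2.96%, beside 4.61% of all. For intergenic transcripts these shares were 7.99% and 3.05%, for intronic ones 7.83% and 2.47%, and for sense transcripts 5.09% and 5.05%.

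The antisense transcript of Ano2, a calcium-activated chloride channel gene, had the smallest p of the slope. MSTRG.17469.1, at chr6:125803352-125812378 on the minus strand with no exon opposite Ano2, had 54, 58 and 45 reads at 3M, 66, 53 and 76 at 6M, 131, 76 and 141 at 12M, and 149, 132 and 257 at 18M. In FPKM this was 0.635, 0.633 and 0.478 at 3M and 1.63, 1.54 and 2.20 at 18M, with no overlap between those ages. As the transcript was named for its small p, that separation follows from the choice. The slope was 0.108 ± 0.0137 log2 units per month (SE), with an unadjusted p of 7.01e-06 and an adjusted p of 0.0511 by edgeR, which did not pass, and adjusted p ranged from 4.02e-12 (DESeq2) to 0.228 under the alternatives. The longer transcript of the same locus, MSTRG.17469.2, named here after its values were seen, had 2.29, 2.11 and 1.99 FPKM at 3M and 1.54, 1.69 and 1.71 FPKM at 18M, the opposite order. The division of reads between the overlapping pair is an estimate.

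Reads summed per symbol gave 1 antisense sum of 1025 that passed the slope test, Aplf (0.178% of all 25341 sums passed). Aplf encodes a factor in the repair of DNA breaks. Its 2 antisense transcripts, MSTRG.17130.1 and MSTRG.17130.2, lie inside the gene at chr6:87657707-87663688 on the plus strand, and the more abundant one has the intron of the GENCODE antisense gene Gm44097. The sum had 212, 220 and 244 reads at 3M, 210, 233 and 256 at 6M, 281, 274 and 339 at 12M, and 329, 324 and 359 at 18M. In FPKM it was 7.32, 7.04 and 7.59 at 3M, 7.48, 8.43 and 8.41 at 6M, 8.60, 9.22 and 9.80 at 12M, and 10.4, 10.9 and 8.91 at 18M. The 18M libraries all lay above the 3M libraries, which follows from the choice of a called sum. The slope was 0.0319 ± 0.00565 log2 units per month (SE), with an adjusted p of 0.0494 by edgeR.

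The call for the Aplf antisense sum lay at the threshold. It was lost under each of the 16 edgeR alternatives, among them the omission of any 1 of the 12 libraries, and was kept by DESeq2, with adjusted p from 0.0027 to 0.18 over all 17. The sense sum of Aplf had a slope of 0.00368 log2 units per month and an adjusted p of 0.82, and the difference between the strands was not tested. Over antisense sums at an unadjusted p of 0.05 or less, 95 were higher with age (9.27%, against 7.46% of all sums) and 19 lower (1.85%, against 7.81%). DESeq2 called 16 of the 1035 antisense sums it tested (1.92% of all sums), 14 of them higher with age (0.747% of all). In CPM, all 18M libraries lay above all 3M libraries for 114 of 1001 antisense sums (background 9.58% of all sums) and below them for 36 (background 9.97%).

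The antisense sum of Rhob, a small GTPase gene, was the only one of 1025 called for any difference among ages (0.0789% of all sums). It had 20, 15 and 23 reads at 3M, 61, 597 and 403 at 6M, 24, 11 and 34 at 12M, and 17, 18 and 8 at 18M. Only 2 of the 6M libraries were high, and the lowest 6M library was still above all libraries of the other ages. As the sum was named for its call, this order follows from the choice. Its transcript MSTRG.4081.1 spanned Rhob with no exon opposite it, and nearly all its coverage was in 1 exon at chr12:8479186-8480204. The adjusted p was 0.0402 by edgeR and ranged from 2.51e-10 to 0.28 under 17 alternatives, 5 of which kept the call. The call was kept without the lowest 6M library and was lost without any 1 of the other 11. DESeq2 called 11 antisense sums for any difference (1.23% of all), and an unadjusted p of 0.05 or less was reached by 92 with edgeR (9.01% of all).

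Between 18M and 3M, none of 1001 antisense sums passed the edgeR test (0.0526% of all sums did), and 11 changed at least 2-fold at an unadjusted p of 0.05 or less (0.873% of all did). DESeq2 called 2 (0.186% of all), those of Ulk4 and Ptprh. The smallest p among higher sums were for Srgap3, Dync1h1 (the dynein heavy chain) and Dip2b. The Dync1h1 antisense sum was at 10.3, 10.1 and 10.2 FPKM at 3M and 13, 13.8 and 13.7 FPKM at 18M, a log2 difference of 0.41 ± 0.07 (SE) with an adjusted p of 0.263 by edgeR. Among lower sums they included Tdh (threonine dehydrogenase) and Lbr (the lamin B receptor). The Lbr antisense sum was at 13.9, 16.6 and 14.6 FPKM at 3M and 13.1, 12.4 and 11.3 FPKM at 18M, so the 18M libraries lay below. The Dync1h1 and Lbr sums were named for a small p, so the separation of their ages follows from the choice.

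**Figure D5:**
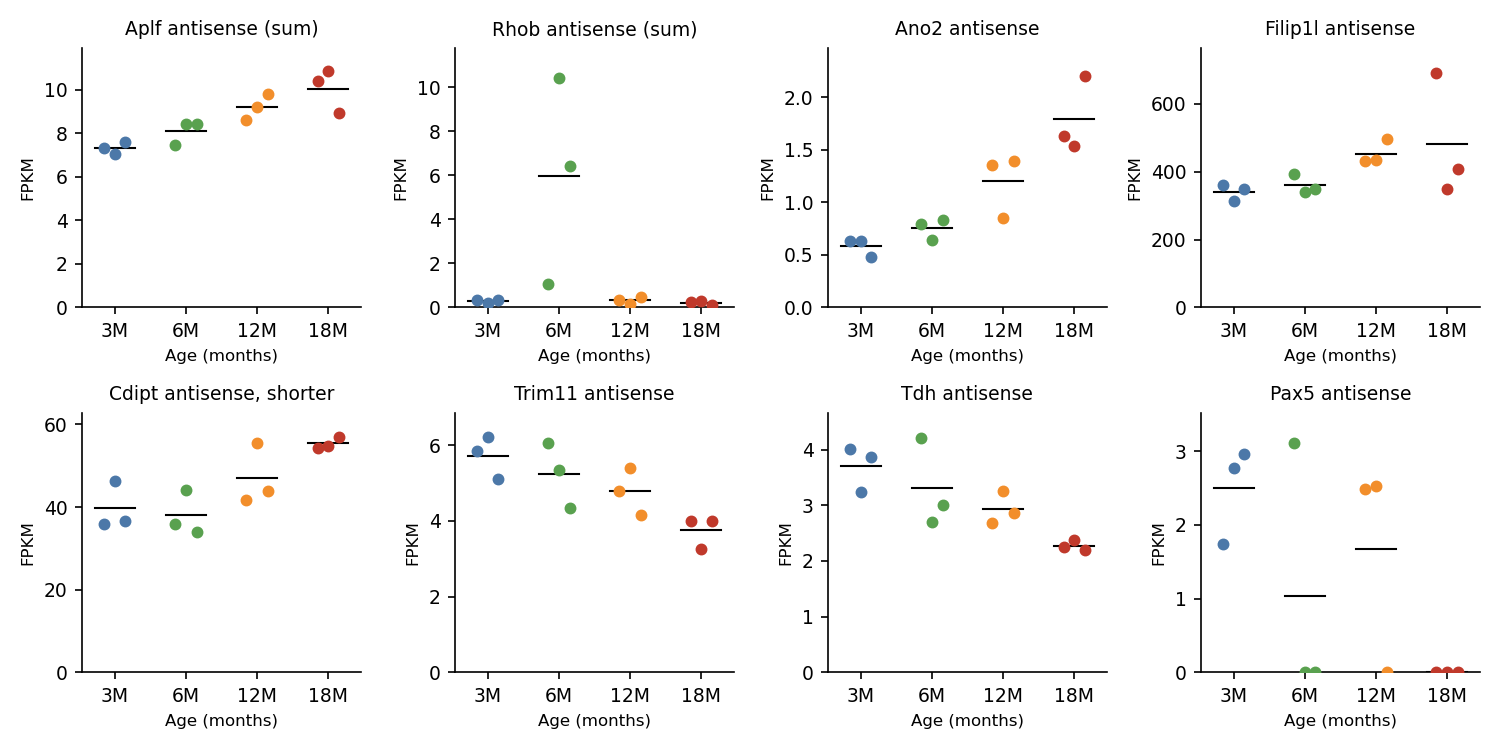
FPKM (vertical axes) by age (horizontal axes) for 8 antisense transcripts or sums, with 1 point per mouse and lines at the mean of 3. Aplf and Ano2 have 18M libraries all above the 3M libraries, Rhob has 2 high libraries at 6M, Trim11 and Tdh have 18M libraries all below the 3M libraries, and Pax5 has 6 libraries at 0. All but Filip1l were named for a small p in a test of age, so differences between their ages follow from the choice.

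The transcript head to head with Herpud2, a gene of protein degradation at the endoplasmic reticulum, was at 1.05, 0.991 and 1.6 FPKM at 3M and 2.27, 1.7 and 2.37 FPKM at 18M. The 18M libraries lay above the 3M libraries, and the slope of 0.0593 ± 0.0143 log2 units per month (SE) did not pass by edgeR (adjusted p = 0.458) and passed by DESeq2 (adjusted p = 0.00254). The Gipc2 transcript, opposite a gene for a PDZ-domain protein, had values that went down, up and down again. It was at 2.01, 2.29 and 2.14 FPKM at 3M, 1.41, 1.56 and 1.59 FPKM at 6M, 2.66, 2.38 and 2.64 FPKM at 12M, and 1.56, 1.76 and 1.9 FPKM at 18M, with 3M and 12M above the other two ages in every library. The adjusted p for any difference among ages was 0.536 by edgeR for the transcript. DESeq2 called the transcript (adjusted p = 1.76e-09) and the Gipc2 antisense sum (adjusted p = 8.15e-05). The Alx1 transcript, opposite a homeobox gene, was at 1.07 to 1.36 FPKM in the 6 libraries of 3M and 18M and at 0.396 to 0.793 FPKM in the 6 of 6M and 12M, which passed the test of any difference by DESeq2 (adjusted p = 9.05e-06) and not by edgeR (adjusted p = 0.613). The Alx1 and Herpud2 transcripts are each part of a larger antisense sum, with means of 12.5 and 6.4 FPKM. DESeq2 called neither sum, and the division of reads between overlapping transcripts is an estimate. The Herpud2, Gipc2 and Alx1 transcripts were named for a small p in a test of age. The separation of their ages therefore follows from the choice.

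Levels that were lower at 18M included those of Trim11 and Tdh. The transcript tail to tail with Trim11, a ubiquitin ligase gene, was at 5.86, 6.20 and 5.11 FPKM at 3M and 3.99, 3.25 and 4.01 FPKM at 18M (slope -0.0383 ± 0.00985 log2 units per month, SE, adjusted p = 0.458 by edgeR). The Tdh transcript with the intron chain of Gm17232 was at 4.01, 3.23 and 3.88 FPKM at 3M and 2.25, 2.38 and 2.19 FPKM at 18M (slope -0.0445 ± 0.0114, adjusted p = 0.458 by edgeR). Both transcripts were named for a small p of the slope. That neither pair of ages overlapped therefore follows from the choice. Neither passed by edgeR, and DESeq2 called both slopes (adjusted p of 0.00611 for Trim11 and 0.00273 for Tdh).

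Some transcripts were at or near 0 in part of the libraries and high in others of the same age. Those of Pax5, Ddx4 and Pitpna were named for their small p between 18M and 3M. That their 3M and 18M libraries did not overlap therefore follows from the choice. The Pax5 transcript MSTRG.13931.13, opposite a B cell transcription factor gene, had 405, 697 and 759 reads at 3M, 701, 0 and 0 at 6M, 651, 610 and 0 at 12M, and 0 in all 3 libraries at 18M. The value of 0 was thus found in 6 libraries of 3 ages, and the adjusted p between 18M and 3M was 0.0836 by edgeR and 5.05e-19 by DESeq2. The Ddx4 transcript MSTRG.5735.2, tail to tail with the germ cell helicase gene, had 250, 132 and 225 reads at 3M, 14, 4 and 10 at 6M, 7, 275 and 7 at 12M, and 0, 9 and 6 at 18M (adjusted p between 18M and 3M 0.669 by edgeR and 3.44e-08 by DESeq2). The Pitpna transcript MSTRG.3186.3 had 10, 13 and 16 reads at 3M, 325, 14 and 2 at 6M, 85, 301 and 22 at 12M, and 163, 95 and 262 at 18M (adjusted p between 18M and 3M 0.0936 by edgeR and 4.81e-14 by DESeq2). The Zc3h7a transcript MSTRG.7788.2, opposite a CCCH zinc-finger gene, ranged from 0.0661 to 61.1 FPKM at 3M, 1.14 to 67.8 FPKM at 6M, 1.62 to 165 FPKM at 12M and 0.15 to 114 FPKM at 18M. Each of these 4 symbols has 5 or more antisense transcripts among which reads are divided. Their antisense sums, computed after these values were seen, ran from 5.75 to 10.05 FPKM over the 12 libraries for Pax5, 8.23 to 16.75 FPKM for Pitpna, 0.447 to 5.75 FPKM for Ddx4 and 4.09 to 169 FPKM for Zc3h7a.

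The symbols with the most antisense transcripts were described by their sums. Dclk1, a doublecortin-like kinase gene, had 18 antisense transcripts whose sum lay between 20.1 and 25.6 FPKM in the 12 libraries, against a mean of 7.60 FPKM for sense Dclk1. Tsga8, a testis-specific gene, had 17 with a sum of 31.4 to 52.2 FPKM, against 151 FPKM. Gm15319 had the most, 38, with a sum of 12.0 to 19.1 FPKM. The 16 transcripts of Cmtm1 summed to 11.3 to 22.1 FPKM in 11 libraries and to 3.17 FPKM in 1 library at 6M.

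The antisense sums of Bicc1 and Als2cr11, whose sense genes were called, were not called. Only 1 of 1025 antisense sums (0.0976%) was called on the slope and 1 of 1025 for any difference among ages. The shares of all sums were 0.178% and 0.0789%, so a missing call says little about these pairs. Sense Bicc1, which encodes an RNA-binding protein, fell with age (slope -0.0479 log2 units per month, adjusted p = 0.0457 by edgeR). The Bicc1 antisense sum was at 5.47, 4.20 and 4.36 FPKM at 3M and 5.11, 5.65 and 5.30 FPKM at 18M, with overlapping ages, and had a slope of 0.014 ± 0.00656 (SE, adjusted p = 0.336). Sense Als2cr11 was called for any difference among ages (adjusted p = 0.000619 by edgeR), and its antisense sum, at 1.18 to 1.86 FPKM, was not (adjusted p = 0.613). The difference between strands was not tested in either case.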

How the data were processed

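Total RNA of 12 testes was sequenced from libraries without strand (TruSeq RNA v2 after ribosomal depletion). Per the labels and the deposited assemblies, HISAT2 served for alignment to mm10, and StringTie (1.3.3b) for assembly, merging and quantification. The deposited read numbers are estimated counts, derived from each transcript's mean coverage and rounded up by the authors, and were used as they stand. The deposited FPKM values are scaled by length and mapped fragments, with no scaling between libraries by the authors. Exon coverage and coordinates come from the deposited assembly of each library. No per-sample column was left out.

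Counts per transcript, and counts summed per symbol and strand class, entered edgeR 4.0.16 under R 4.3.3 (its quasi-likelihood test, TMM, filterByExpr, Benjamini-Hochberg adjustment over all features) for the slope on age in months and for any difference among ages in 12 libraries, and for 18M against 3M in 6 libraries. A call was an adjusted p of 0.05 or less, with at least 1 log2 unit of difference for 18M against 3M. DESeq2 1.42.0 was an alternative. Empty adjusted p-values of DESeq2 were not counted as calls. The scripts were tested on simulated data. Each library held 50924104 to 71803379 assigned reads. Ratios of FPKM and of coverage used a pseudocount of 0.1, and shares per step a minimum of 1 FPKM in an age. Sense exons were those of class =, c, j and o. Reference exons came from RefSeq transcripts in the table and GENCODE vM21.

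Named transcripts were the 10 with the highest mean FPKM; the 10 highest with at least 3 exons and at most 50% of their length opposite a RefSeq exon; all called, or else the 3 higher and 3 lower with the smallest p in each of 6 tests; those of listed cell type genes at 1 FPKM or more; those opposite a called sense gene; and the 5 symbols with the most. Members and lists were chosen with earlier results of these data known. Replicate numbers did not pair mice: deviations of same-numbered libraries had correlations of -0.0627 to 0.0609 over 18 pairs. No 2 libraries were identical.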

Additional observations from a re-analysis of the deposited data

How the results depend on the processing

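The count of antisense transcripts called was 0 in each of the 3 edgeR tests. With DESeq2 it was 32 for the slope, 29 for 18M against 3M and 39 for any difference, and with an unadjusted p it was 112, 36 and 87. Leaving out 1 library gave 0 to 1 in each test. For antisense sums on the slope, the single call became 0 with DESeq2's size factors and 0 with library size alone, 16 with DESeq2, 114 unadjusted and 0 to 2 when 1 library was left out. For sums between 18M and 3M, where 0 were called, DESeq2 gave 2, an unadjusted p gave 11 and leaving out 1 library gave 0 to 2. For any difference, the single call became 11 with DESeq2, 92 unadjusted and 0 to 2 when 1 library was left out. On the slope, the sums called when a library was left out were those of Cdipt, in 1 case, and of Ccnyl1, which had 71, 0 and 55 reads at 18M, 2 in 1 library at 12M and 0 elsewhere.

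A replicate block, which treats mice of the same number as paired, gave 0 calls in all 6 tests, so the calls of 1 for the slope and for any difference among sums became 0 and 0. The numbers share no origin in the labels, and 5 of 12 libraries were closest to one of their own number.

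Antisense transcripts whose mean was higher or lower at every step numbered 151, and 83 with a minimum of 2 FPKM (129 to 179 without 1 library). The share of reads, 0.819%, became 1.33% as a share of summed FPKM (0.811 to 0.823% without 1 library). The mean log2 ratio of antisense to sense level, -1.19, became -0.97 with a pseudocount of 1 FPKM and -1.51 with no minimum level (-1.21 to -1.19 without 1 library). The exon coverage ratio, -0.15 as the mean over libraries of each library's median, became -0.11 with a pseudocount of 1 (-0.16 to -0.14 without 1 library). The causes were not tested. Among 382 alternatives for 26 named results, 336 kept the side of the threshold, 18 passed it and 28 fell short of it, and none changed direction.

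The libraries carry no strand, so exonic reads shared with the sense gene cannot be assigned to 1 strand. Intron ends were readable only inside reference exons and promoters. With 3 mice per age and 58289 transcripts tested, an unadjusted p of 7.01e-06 for Ano2 fell short of the threshold.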
